A study of Mus musculus with 8 samples.

Results

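The 9 genes described here serve antigen presentation by major histocompatibility complex (MHC) class I, and were chosen by name: the heavy chains H2-K1, H2-D1 and H2-T23, the peptide transporter subunits Tap1 and Tap2, the loading chaperone Tapbp, the inducible proteasome subunits Psmb8 and Psmb9, and the transactivator Nlrc5. All 9 of the 9 symbols were found among the 57010 genes of the count table, and 8 of them, all but Psmb8, had enough counts to be among the 17976 genes tested. RNA sequencing covered 8 libraries of mouse embryonic stem cells, with 2 libraries in each of 4 groups: Control cells with DMSO, Control cells with ganciclovir (GANC), HSVTK cells with DMSO and HSVTK cells with GANC. HSVTK cells carry a reporter, 2C::HSVTK, meant to make herpes simplex thymidine kinase in the rare stem cells that resemble the embryo at its 2-cell stage, so that the nucleoside drug ganciclovir kills those cells. DMSO is a common drug solvent. Neither the labels nor the design text give the dose, the duration, the mouse strain, what the Control cells carry, or whether HSVTK cells are 1 clone. Nor do they say whether replicates are separate cultures, so the p-values capture the scatter of these 8 libraries alone, and that scatter could be technical.

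In a nucleated cell, the proteasome cuts proteins into peptides, the Tap1 and Tap2 heterodimer pumps them into the endoplasmic reticulum, and tapasin (Tapbp) helps load them onto a heavy chain paired with beta-2-microglobulin (B2m) for display to CD8+ T cells. Interferon gamma replaces the constitutive catalytic proteasome subunits by Psmb8, Psmb9 and Psmb10, and Nlrc5 acts with the RFX, CREB/ATF and NF-Y factors on the SXY module of class I promoters. Embryonic stem cells are known for very little class I on their surface, and 2-cell-like cells for a distinct transcriptome that includes the Zscan4 genes.

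The promoters of the members called in more than 1 comparison (H2-K1, H2-D1 and Psmb9, which shares its promoter with Tap1) and of B2m are shown. H2-K1 and H2-D1 share most letters of a long aligned stretch with each other, but only short motifs with B2m. Whether these letters bear on the levels given below was not tested. The RefSeq promoter table on GRCm38.p6 held 7 of the 9 members, all but Tap2 and Nlrc5. Each stretch runs 5′ to 3′ on the strand of the gene and ends just before the start of its first exon. Capitals mark 4 motifs searched by their letters on both strands. These include the interferon-stimulated element (GAAA, any 2 bases, GAAA) and the CREB/ATF half-site TGACG of the X2 box. Also marked are the NF-Y site CCAAT of the Y box (seen as ATTGG where it lies on the other strand) and the NF-kappaB motif. The latter was searched as GGG, A or G, any base, A or T, 2 bases that are each C or T, and CC.
H2-K1, chr17:34000348-34000597, minus strand: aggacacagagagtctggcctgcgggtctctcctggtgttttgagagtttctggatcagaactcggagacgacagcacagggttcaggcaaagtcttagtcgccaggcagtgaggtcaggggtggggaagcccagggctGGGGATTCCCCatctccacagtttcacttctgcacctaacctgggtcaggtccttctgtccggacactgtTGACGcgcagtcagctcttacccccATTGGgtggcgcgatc
H2-D1, chr17:35262844-35263093, plus strand: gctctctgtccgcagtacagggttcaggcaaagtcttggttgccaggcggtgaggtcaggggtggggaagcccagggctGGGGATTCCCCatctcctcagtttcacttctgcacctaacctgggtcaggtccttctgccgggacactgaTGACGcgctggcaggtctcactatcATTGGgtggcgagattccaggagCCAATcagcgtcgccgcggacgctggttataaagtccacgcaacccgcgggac
Psmb9 and Tap1, the stretch between their starts, chr17:34187331-34187555, shown on the plus strand, on which Tap1 is read: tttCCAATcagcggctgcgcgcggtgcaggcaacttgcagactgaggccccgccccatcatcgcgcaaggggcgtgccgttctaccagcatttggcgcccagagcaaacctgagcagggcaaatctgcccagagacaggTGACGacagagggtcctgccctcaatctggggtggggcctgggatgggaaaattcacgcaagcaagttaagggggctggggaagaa
B2m, chr2:122147437-122147686, plus strand: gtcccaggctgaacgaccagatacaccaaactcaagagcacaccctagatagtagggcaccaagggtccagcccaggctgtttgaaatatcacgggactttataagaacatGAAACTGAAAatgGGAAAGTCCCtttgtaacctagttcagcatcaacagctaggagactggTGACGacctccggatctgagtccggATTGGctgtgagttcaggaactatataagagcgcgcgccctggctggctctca
The best local alignment of the H2-K1 and H2-D1 stretches matched in 161 of 177 columns (91.0%). Against B2m the best alignments were short, with 26 of 39 columns matched for H2-K1 and 27 of 39 for H2-D1. For H2-K1 against Tap1 it was 49 of 74. The H2-K1 and H2-D1 stretches both hold an NF-kappaB match, TGACG and CCAAT in the same order. These motifs start at positions -111, -41 and -16 from the start of H2-K1 and at -171, -101 and -76 from that of H2-D1. H2-D1 has a second CCAAT at -53. The H2-K1 stretch ends before the place that lines up with it, so H2-K1 was not searched there. In B2m the NF-kappaB match, TGACG and CCAAT stand at -126, -78 and -53, behind a match of the interferon-stimulated element at -139. H2-K1 and H2-D1 have no match of that element in the exact form searched. Looser forms were not searched, so the heavy chain promoters may still hold such an element. Psmb9 and Tap1 start 226 bases apart on opposite strands and share 1 CCAAT and 1 TGACG. Among the members that are not printed, H2-T23 has the interferon-stimulated element at -124 and CCAAT at -52, Tapbp has CCAAT at -248 and -165, and Psmb8 has no match in its window. Of the promoters of 27025 genes, 34.5% hold CCAAT, 17.9% TGACG, 3.75% the NF-kappaB motif and 3.04% the interferon-stimulated element, so that CCAAT and TGACG are common in any promoter set. Matches of different motifs do not overlap in the printed stretches, and a match here is a description of letters, not a site of binding.

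Libraries held 29704460 to 34184475 counts. The genes that the reporter system addresses went against the labels: Zscan4c stood at 5.23 and 4.10 CPM, counts scaled to a common library size, in Control DMSO, 5.0 and 4.15 in Control GANC, 4.70 and 3.59 in HSVTK DMSO, and 8.53 and 8.88 in the libraries labelled HSVTK GANC, the group in which 2-cell-like cells were to be removed. Every direction below that involves them rests on the labels. The stem cell markers were abundant throughout, at a summed 5330 to 6750 CPM over 10 genes, with the highest sums in HSVTK DMSO. Of the blood cell markers, Ptprc, Lyz2 and Tyrobp had 0 counts in every library, and of the feeder markers Fap did. The list of 10 blood markers still summed to 8.58 to 11.4 CPM in Control DMSO, 12.1 to 12.3 in Control GANC, 15.7 to 15.8 in HSVTK DMSO and 17.5 to 19.1 in the libraries labelled HSVTK GANC. The list of 14 fibroblast and feeder markers summed to 13.8 to 15.1, 18 to 19.1, 24 to 27.6 and 24.2 to 24.9 CPM in the same order, so both lists were higher in both HSVTK groups, HSVTK DMSO among them, than in Control DMSO. Their part in the class I values was not tested. Fewer cells of a type and less RNA per cell cannot be told apart in such bulk libraries.

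The classical heavy chains were the most abundant members, and the transporter, the inducible proteasome subunits and Nlrc5 were scarce. Per gene length, in the deposited FPKM values, H2-K1 had the highest mean over the 8 libraries, 8.85 (lowest 6.13, highest 14.5), followed by H2-D1 at 6.77 and Tapbp at 2.48 (2.04 to 2.95). Tap1 had a mean of 0.327 FPKM, Psmb9 0.301, H2-T23 0.134, Tap2 0.0966, Nlrc5 0.0543 and Psmb8 0.0138. For scale, the constitutive subunit Psmb6, which Psmb9 replaces, had a mean of 205 FPKM.

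**Figure D1:**
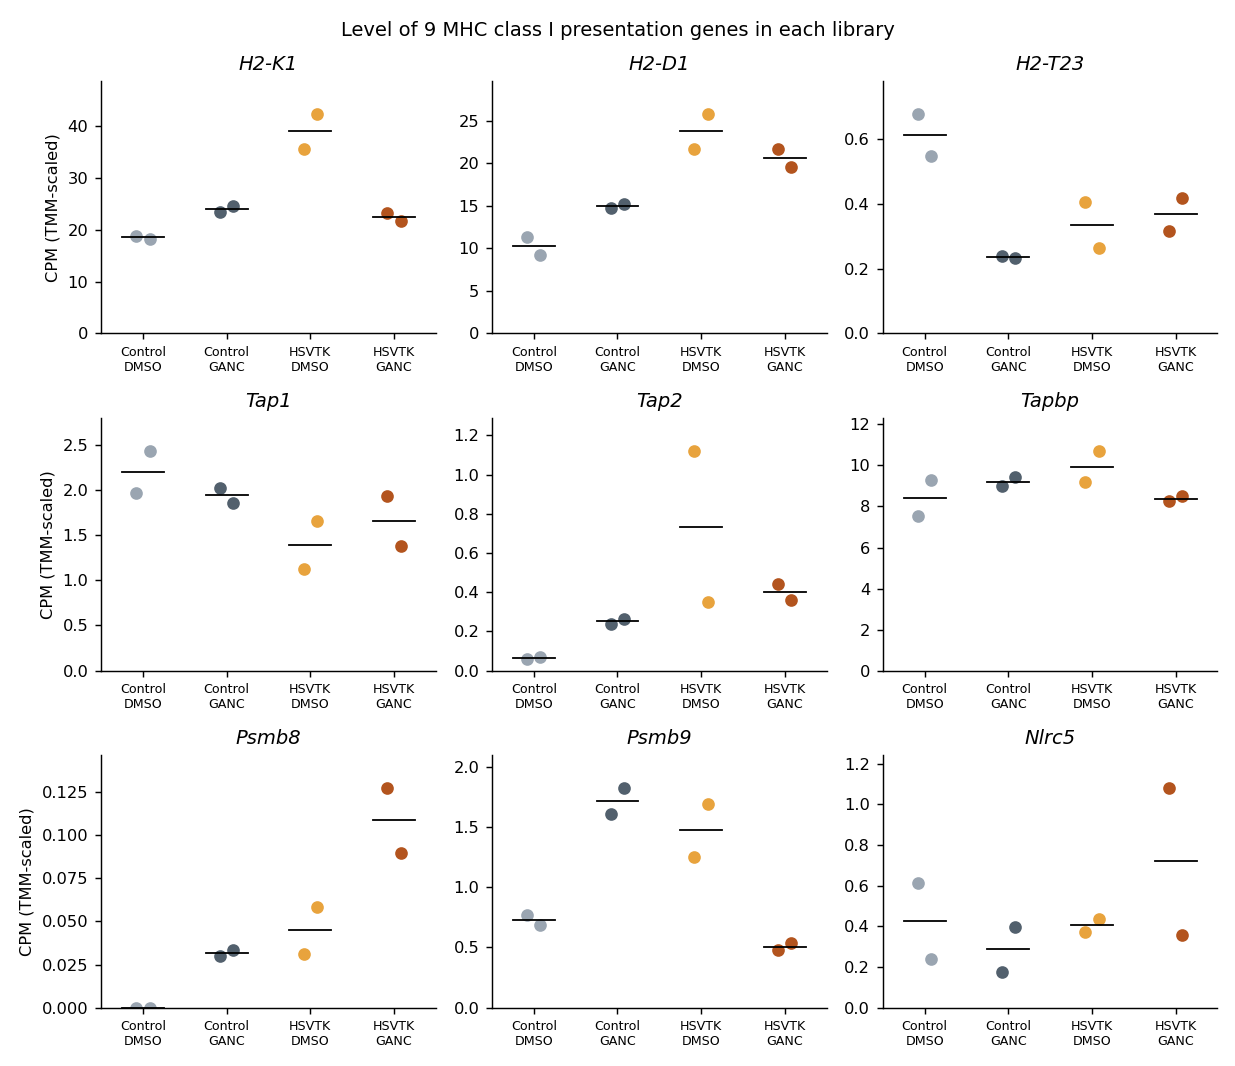
Level of each of the 9 members in every library (y axis, CPM), with libraries as points and the group mean as a bar, in the 4 groups along the x axis. H2-K1 is highest in HSVTK DMSO (35.7 and 42.4 CPM), and Psmb9 is high in Control GANC and HSVTK DMSO and low in the libraries labelled HSVTK GANC (0.476 and 0.538 CPM).

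H2-K1 (ENSMUSG00000061232), a classical heavy chain that presents peptides to CD8+ T cells, was measured at 18.8 and 18.3 CPM in Control DMSO, 23.4 and 24.7 in Control GANC, 35.7 and 42.4 in HSVTK DMSO, and 23.2 and 21.7 in the libraries labelled HSVTK GANC. No neighbouring groups overlapped in the order HSVTK DMSO, Control GANC, HSVTK GANC, Control DMSO, although the middle pair was not called different. Its group means ± SD (n = 2 each) were 39.1 ± 4.74 CPM in HSVTK DMSO against 18.5 ± 0.342 in Control DMSO, a log2 fold change of 1.08 ± 0.10 (SE), with an adjusted p of 1.21e-09 in edgeR's quasi-likelihood test. With ganciclovir H2-K1 fell by 0.80 ± 0.10 on the log2 scale in HSVTK cells (adjusted p = 4.13e-07, edgeR), to 22.4 ± 1.06 CPM, and rose by 0.37 ± 0.10 in Control cells (adjusted p = 0.0217, edgeR), to 24 ± 0.917 CPM. The difference of both drug responses was -1.17 ± 0.14 (adjusted p = 4.12e-07, edgeR). Under ganciclovir the 2 cell groups differed by -0.10 ± 0.10 (adjusted p = 0.518, edgeR).

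H2-D1 (ENSMUSG00000073411), the other classical heavy chain, stood at 11.3 and 9.23 CPM in Control DMSO, 14.8 and 15.2 in Control GANC, 21.7 and 25.8 in HSVTK DMSO, and 21.7 and 19.6 in the libraries labelled HSVTK GANC. Control DMSO was the lowest group and HSVTK DMSO the highest, and the nearest libraries of both HSVTK groups were equal at 3 digits. H2-D1 was higher in HSVTK than in Control cells under DMSO by 1.21 ± 0.12 (adjusted p = 4.63e-09, edgeR) and under ganciclovir by 0.46 ± 0.12 (adjusted p = 0.00375, edgeR). It rose with ganciclovir in Control cells by 0.55 ± 0.12 (adjusted p = 0.0061, edgeR), while in HSVTK cells its fold change of -0.20 ± 0.11 was not called (adjusted p = 0.193, edgeR). The responses differed by -0.75 ± 0.17 (adjusted p = 0.00132, edgeR). The ratio of H2-K1 to H2-D1 in FPKM, chosen after the values were seen, was 1.38 to 1.74 in the 6 libraries outside the group labelled HSVTK GANC, where it was 0.938 and 0.969.

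H2-T23 (ENSMUSG00000067212) encodes Qa-1, a non-classical heavy chain that presents leader peptides of other class I chains to NKG2A receptors. It had 22 and 16 counts in Control DMSO, 8 and 7 in Control GANC, 13 and 9 in HSVTK DMSO, and 10 and 14 in the libraries labelled HSVTK GANC. Control DMSO was the highest group and Control GANC the lowest, at 0.612 ± 0.092 and 0.235 ± 0.00409 CPM, yet the fold change of -1.37 ± 0.67 was not called (adjusted p = 0.234, edgeR), and H2-T23 was not called in the other 4 comparisons either.

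The light chain B2m, which every class I heavy chain pairs with, did not follow H2-K1 and H2-D1. B2m had 686 and 591 counts in Control DMSO, 644 and 559 in Control GANC, 324 and 387 in HSVTK DMSO, and 442 and 453 in the libraries labelled HSVTK GANC. All 4 Control libraries were above all 4 HSVTK libraries. Under DMSO it was lower in HSVTK than in Control cells by a log2 fold change of -0.95 ± 0.11 (adjusted p = 1.11e-07, edgeR), and under ganciclovir by -0.45 ± 0.11 (adjusted p = 0.00271, edgeR). In HSVTK cells B2m rose with ganciclovir by 0.36 ± 0.11 (adjusted p = 0.0174, edgeR). Leaving out HSVTK DMSO replicate 1 ended that call (adjusted p = 0.208, edgeR), as did leaving out HSVTK GANC replicate 1 (0.101) or 2 (0.057). Summed over H2-K1 and H2-D1, heavy chain FPKM divided by B2m FPKM was 0.438 and 0.417 in Control DMSO, 0.616 and 0.662 in Control GANC, 1.75 and 1.86 in HSVTK DMSO, and 1.0 and 0.952 in the libraries labelled HSVTK GANC. The 4 groups did not overlap in this ratio, which was also chosen after the values were seen and is given with no test.

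**Figure D2:**
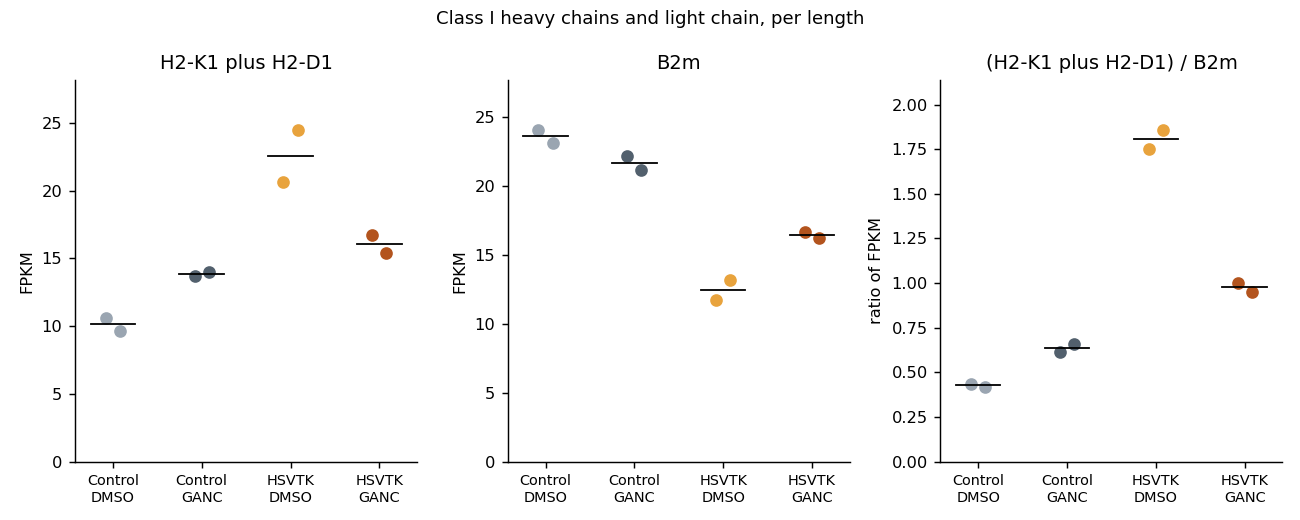
Heavy chain transcript (H2-K1 plus H2-D1, FPKM), light chain transcript (B2m, FPKM) and their ratio, in 3 panels with the 4 groups along the x axis, libraries as points and group means as bars. HSVTK DMSO has the most heavy chain (20.6 and 24.5 FPKM) with the least B2m (11.7 and 13.2 FPKM), and Control DMSO the least heavy chain (10.6 and 9.65) with the most B2m (24.1 and 23.1).

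Of the transporter, Tap1 (ENSMUSG00000037321) was measured at 1.97 and 2.43 CPM in Control DMSO, 2.02 and 1.86 in Control GANC, 1.12 and 1.66 in HSVTK DMSO, and 1.93 and 1.38 in the libraries labelled HSVTK GANC. Ordered by their means, from Control DMSO through Control GANC and HSVTK GANC to HSVTK DMSO, each group overlapped the next, while both Control groups lay above HSVTK DMSO. Tap1 was called in none of the 5 comparisons, with adjusted p from 0.104 upward in edgeR. Its partner Tap2 (ENSMUSG00000024339) had 2 and 2 counts in Control DMSO, 8 and 8 in Control GANC, 36 and 12 in HSVTK DMSO, and 14 and 12 in the libraries labelled HSVTK GANC. The value in HSVTK DMSO replicate 1 stands apart from its replicate, at 1.12 against 0.350 CPM. Tap2 was higher in HSVTK than in Control cells under DMSO by 3.42 ± 0.86 on the log2 scale (adjusted p = 0.00236, edgeR), and by 2.37 without HSVTK DMSO replicate 1, when the call was lost (adjusted p = 0.144, edgeR). With so few counts the standard error understates the uncertainty. Tap2 was called in no other comparison with all 8 libraries, and without HSVTK DMSO replicate 2 its difference of drug responses, otherwise -2.76 ± 1.16 (adjusted p = 0.0811, edgeR), was -3.38 and was called (adjusted p = 0.0476, edgeR).

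Tapbp (ENSMUSG00000024308), which bridges the transporter and the empty heavy chain, varied least among the members: 7.54 and 9.30 CPM in Control DMSO, 9.01 and 9.42 in Control GANC, 9.19 and 10.7 in HSVTK DMSO, and 8.28 and 8.49 in the libraries labelled HSVTK GANC. Its neighbouring groups overlapped throughout, and its largest fitted change between 2 groups, -0.25 ± 0.14 with ganciclovir in HSVTK cells, was not called (adjusted p = 0.208, edgeR).

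Psmb9 (ENSMUSG00000096727), the inducible subunit that takes the place of Psmb6, had the widest swing of the members with a call for the drug. Its counts were 25 and 20 in Control DMSO, 54 and 55 in Control GANC, 40 and 58 in HSVTK DMSO, and 15 and 18 in the libraries labelled HSVTK GANC. The 2 high groups overlapped each other, Control DMSO lay below both, and the libraries labelled HSVTK GANC were the lowest. Psmb9 fell with ganciclovir in HSVTK cells from 1.47 ± 0.317 to 0.507 ± 0.0442 CPM (SD, n = 2), or by 1.53 ± 0.40 on the log2 scale (adjusted p = 0.00455, edgeR). It rose in Control cells from 0.727 ± 0.0606 to 1.72 ± 0.154 CPM, by 1.23 ± 0.38 (adjusted p = 0.0438, edgeR). The responses differed by -2.76 ± 0.55 (adjusted p = 0.000433, edgeR), a call kept in every alternative run. Under ganciclovir Psmb9 was lower in HSVTK than in Control cells, by -1.75 ± 0.40 (adjusted p = 0.00144, edgeR). Under DMSO it was higher by 1.01 ± 0.38, with an adjusted p of 0.0425 in edgeR that 1 library could undo: without HSVTK DMSO replicate 2 the value was 0.78 (adjusted p = 0.268), and without Control DMSO replicate 1 or 2 the adjusted p was 0.107 or 0.163. The fall in HSVTK cells was -1.30 without HSVTK DMSO replicate 2 and then not called (adjusted p = 0.0644, edgeR).

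Psmb8 (ENSMUSG00000024338), which takes the place of Psmb5, had 0 and 0 counts in Control DMSO, 1 and 1 in Control GANC, 1 and 2 in HSVTK DMSO, and 4 and 3 in the libraries labelled HSVTK GANC. A count of 0 allows a level of up to 0.0923 and 0.103 CPM in the 2 Control DMSO libraries at a floor of 3 counts per library, which covers counting error only. The libraries labelled HSVTK GANC had the highest counts of Psmb8, which was too scarce to be tested. Psmb10, the third inducible subunit, was by contrast steady between 18.1 and 22.5 CPM.

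Against their constitutive counterparts the inducible subunits had very different shares. Psmb9 made up 0.0999 and 0.0906% of the summed Psmb9 and Psmb6 FPKM in Control DMSO, 0.219 and 0.232% in Control GANC, 0.172 and 0.234% in HSVTK DMSO, and 0.0644 and 0.0695% in the libraries labelled HSVTK GANC. Psmb10 made up 11.1 to 13.2% of Psmb10 plus Psmb7 over all 8 libraries, and Psmb8 at most 0.0512% of Psmb8 plus Psmb5. Psmb6, Psmb5 and Psmb7 were not called with ganciclovir in either cell group.

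**Figure D3:**
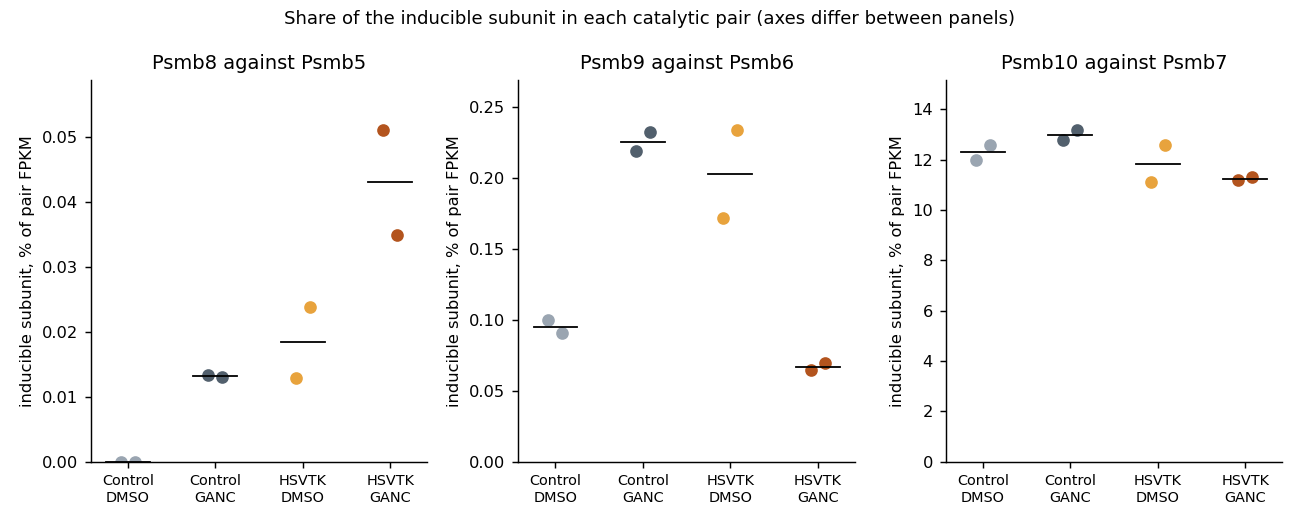
Share of each inducible subunit in the sum with its constitutive counterpart (y axis, percent of FPKM, scaled separately in each panel), with libraries as points and group means as bars, for Psmb8 with Psmb5, Psmb9 with Psmb6 and Psmb10 with Psmb7. Psmb10 stays between 11.1 and 13.2%, while Psmb9 stays under 0.24% and is lowest in the libraries labelled HSVTK GANC.

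Nlrc5 (ENSMUSG00000074151), the class I transactivator, had 20 and 7 counts in Control DMSO, 6 and 12 in Control GANC, 12 and 15 in HSVTK DMSO, and 34 and 12 in the libraries labelled HSVTK GANC. All neighbouring groups overlapped in the order of their levels, the replicates of 3 groups differed from each other by more than 2-fold, and Nlrc5 was called in none of the 5 comparisons, with adjusted p of 0.17 or more in edgeR. The calls of H2-K1 and Psmb9 thus had no counterpart in a call of Nlrc5 at this depth.

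Counted by comparison, ganciclovir in HSVTK cells lowered 2 of the 8 tested members (H2-K1 and Psmb9) and raised 0, where 28.5% of all tested genes were called, 15.2% lower and 13.3% higher. Scaling by library size alone turned the split over all genes from 2391 higher and 2728 lower to 2758 and 2325, and H2-K1 and Psmb9 fell under it too. At an unadjusted p under 0.05 the counts were again 2 lower and 0 higher, and DESeq2 gave the same numbers. The median log2 fold change of the 8 was -0.22, beside 0.01 over all tested genes. Since 15.2% of all genes were lower, 2 of 8 is not far from the background, and it is the named genes rather than the count that carry the comparison.

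In Control cells ganciclovir raised 3 of the 8 (H2-K1, H2-D1 and Psmb9) and lowered 0, where 8.08% of all tested genes were called, 4.73% higher and 3.35% lower. At an unadjusted p under 0.05 there were 3 higher and 0 lower, and with DESeq2 2 and 0. The median was 0.25, beside 0 over all genes. Each of these calls was lost without some single library. H2-K1 was not called without Control DMSO replicate 1 (adjusted p = 0.0946, edgeR), Control DMSO replicate 2 (0.149) or Control GANC replicate 2 (0.111), and H2-D1 not without Control DMSO replicate 2 (0.137). Psmb9 was not called without any 1 of the 4 Control libraries (adjusted p from 0.0561 to 0.22, edgeR), nor without HSVTK DMSO replicate 2 (0.054).

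The difference of the 2 drug responses was called for 3 of the 8, all lower in HSVTK cells (H2-K1, H2-D1 and Psmb9), where 25.6% of all tested genes were called, 14.0% lower and 11.6% higher. No member was called higher, at an unadjusted p under 0.05 or with DESeq2 either. The median was -0.56, beside 0.02 over all genes.

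Under DMSO, HSVTK cells were higher than Control cells in 4 of the 8 (H2-K1, H2-D1, Tap2 and Psmb9) and lower in 0, where 33.7% of all tested genes were called, 16.4% higher and 17.3% lower. Scaling by library size alone turned that split from 2957 higher and 3103 lower to 3233 and 2818. At an unadjusted p under 0.05, 4 were higher and 1 lower, and with DESeq2 3 and 0. The median was 0.63, beside 0 over all genes. Both DMSO groups also serve as the baselines of the drug comparisons, so these contrasts are not independent of each other.

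Under ganciclovir, 1 of the 8 was higher in HSVTK cells (H2-D1) and 1 lower (Psmb9), where 26.1% of all tested genes were called, 11.1% higher and 14.9% lower. Of those genes 2004 were higher and 2681 lower, a split that turned to 2579 and 2190 when library size alone was used for scaling, while H2-D1 and Psmb9 kept their directions. The median of the 8 was 0.18, beside 0.01 over all genes. H2-D1 was 0.38 and not called without HSVTK GANC replicate 1 (adjusted p = 0.0645, edgeR).

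**Figure D4:**
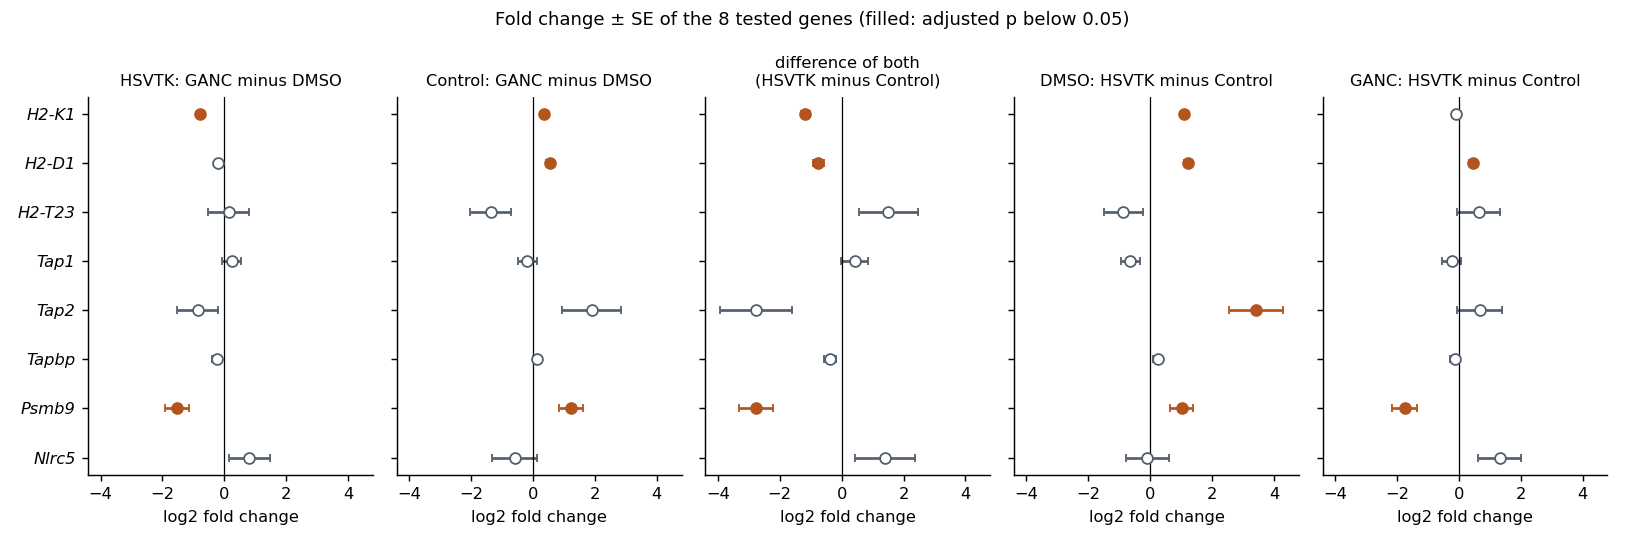
Log2 fold change (x axis) with its standard error for the 8 tested members in each of the 5 comparisons, 1 panel each, filled points marking genes called at an adjusted p below 0.05. H2-K1 and Psmb9 lie at opposite signs for ganciclovir in HSVTK (-0.80 and -1.53) and Control cells (0.37 and 1.23).

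Other class I and class I-like genes were measured alongside, 12 of them tested from a list of 23. With ganciclovir in HSVTK cells 4 of the 12 fell and 1 rose, where 15.2% of all tested genes fell and 13.3% rose. H2-Bl was at 12.7 and 13.0 CPM in HSVTK DMSO and 6.66 and 6.79 in the libraries labelled HSVTK GANC, a change of -0.93 ± 0.14, and Fcgrt, the neonatal Fc receptor, changed by -0.74 ± 0.13. H2-M5 rose by 0.39 ± 0.07. In Control cells 0 of the 12 were called, where 4.73% of all tested genes were higher and 3.35% lower. At an unadjusted p under 0.05 in edgeR 2 of the 12 were higher, and with DESeq2 0 were called. Under DMSO 5 of the 12 were higher in HSVTK cells and 0 lower, where 16.4% of all tested genes were higher and 17.3% lower, among them H2-Bl (1.25) and H2-Q10 (1.63 on the log2 scale). At an unadjusted p under 0.05 they were 6 and 1 in edgeR, and with DESeq2 3 and 0.

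Of the light chain, chaperones and trimming peptidases, all 15 of 15 were tested. In the difference of drug responses 5 of them were called higher in HSVTK cells, 0 lower and 10 not, where 11.6% of all tested genes were higher and 14.0% lower. There was 1 lower at an unadjusted p under 0.05 in edgeR and 0 with DESeq2. Pdia3, which holds the loading complex together with tapasin, was at 484 and 486 CPM in HSVTK DMSO and rose by 0.28 ± 0.05 to 584 and 598 CPM, yet both Control groups were above that, at 738 and 731 CPM with DMSO and 660 and 679 with ganciclovir. With ganciclovir in HSVTK cells 3 of the 15 were called higher and 1 lower, where 13.3% of all tested genes were higher and 15.2% lower. Tapbpl, a peptide editor related to tapasin, rose by 0.81 ± 0.21, and the chaperone Hspa5 changed by -0.2 ± 0.05. The difference of drug responses for Tapbpl was 0.5 ± 0.3 and not called (adjusted p = 0.238, edgeR). Mogs, a glucosidase that trims new glycans, was lower in HSVTK than in Control cells by -1.34 under DMSO and -1.26 under ganciclovir on the log2 scale.

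Of the other proteasome genes tied to interferon, Psmb10 and the PA28 activator subunits Psme1 and Psme2 were not called in either drug comparison. Neither was any of the 14 constitutive core genes, with 0 at an unadjusted p under 0.05 in edgeR and 0 with DESeq2. Of all tested genes, 28.5% were called with the drug in HSVTK cells and 8.08% in Control cells.

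Among 17 tested factors that act on class I promoters, ganciclovir in HSVTK cells raised 4 and lowered 4, where 28.5% of all tested genes were called. DESeq2 called 2 higher and 4 lower, and limma 2 and 3. Irf8, an interferon regulatory factor of the myeloid lineage, was, like H2-K1, highest in HSVTK DMSO: 0.800 and 0.650 CPM in Control DMSO, 1.99 and 1.26 in Control GANC, 2.74 and 2.75 in HSVTK DMSO, and 0.539 and 0.568 in the libraries labelled HSVTK GANC. Irf8 fell by 2.30 ± 0.36 with ganciclovir in HSVTK cells. Irf9, the DNA-binding part of the type I interferon complex, was opposite, at 4.95 and 5.11 CPM in HSVTK DMSO and 9.73 and 11.8 in the libraries labelled HSVTK GANC, a rise of 1.10 ± 0.15. Of the Y box factor NF-Y, the subunit Nfyb fell by 0.44 ± 0.06, while the subunit Nfyc rose by 0.24 ± 0.07 (adjusted p = 0.00591, edgeR). Irf1 was lower in HSVTK than in Control cells under ganciclovir (-0.65 ± 0.13) and under DMSO (-0.45 ± 0.13, not called without Control DMSO replicate 1, adjusted p = 0.132, or HSVTK DMSO replicate 2, 0.0769, edgeR). Neither Irf1 nor the X box subunit Rfx5 was called with the drug in either cell group.

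In the interferon gamma receptor pathway, 9 of 12 genes were tested. With ganciclovir in HSVTK cells 3 fell and 0 rose, where 15.2% of all tested genes fell and 13.3% rose. At an unadjusted p under 0.05 in edgeR 4 fell and 0 rose. DESeq2 called 2 lower and 0 higher, and limma 1 and 0. Ifngr1, the ligand-binding receptor chain, stood at 3.12 and 3.88 CPM in HSVTK DMSO and 1.52 and 1.82 in the libraries labelled HSVTK GANC, a change of -1.06 ± 0.23, and the receptor kinases Jak1 and Jak2 changed by -0.41 ± 0.08 and -0.71 ± 0.23. Jak2 was not called once HSVTK DMSO replicate 1 (adjusted p = 0.274, edgeR) or HSVTK GANC replicate 1 (0.169) was left out. The ligand Ifng had at most 8 counts in a library and 0 in 6 of the 8, and Ciita, the class II transactivator, at most 6.

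**Figure D5:**
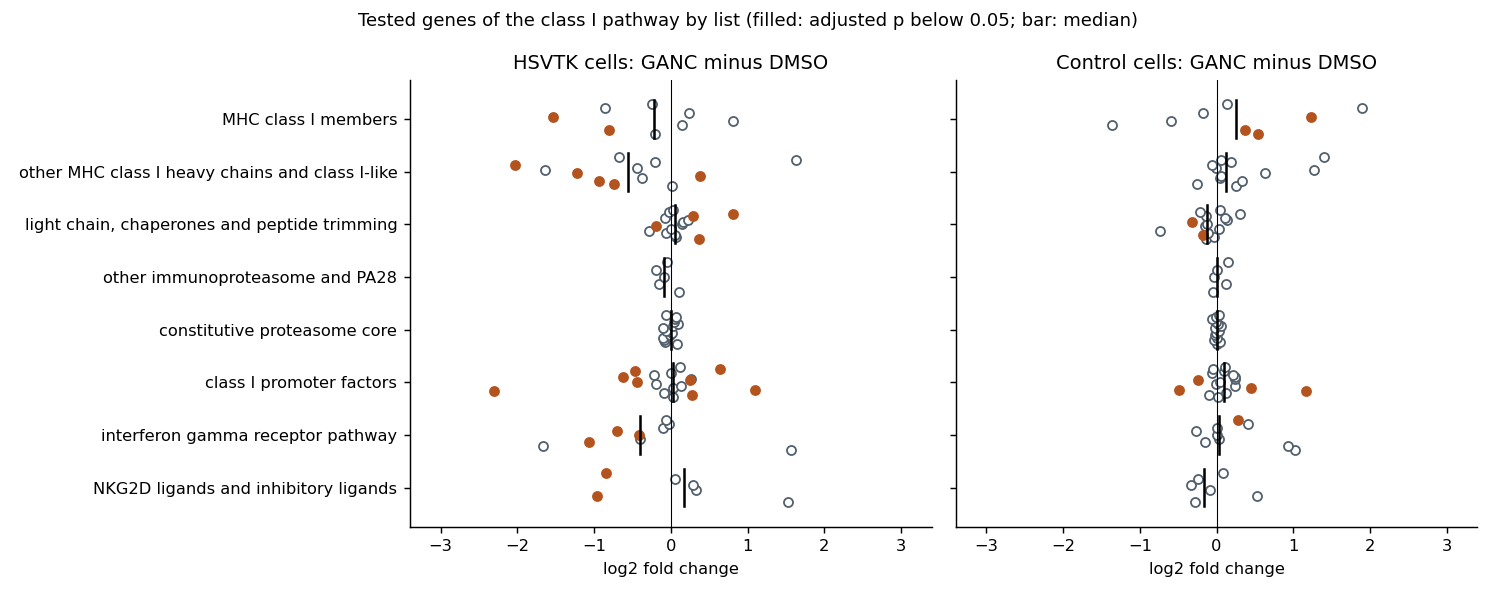
Log2 fold changes with ganciclovir (x axis) of the tested genes of each list (rows) in HSVTK cells and in Control cells (panels), 1 point per gene, filled where called, with the median of the list as a bar. The class I members have medians of -0.22 in HSVTK cells and 0.25 in Control cells.

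The list of MHC class II and antigen-presenting cell markers was lowest and highest in the same groups as H2-K1. Its 8 genes summed to 7.04 to 8.93 CPM in Control DMSO, 10.5 to 11.7 in Control GANC, 14.2 to 16.9 in HSVTK DMSO, and 11.3 to 12.0 in the libraries labelled HSVTK GANC. The class II chain H2-Ab1 had 4 and 6 counts in Control DMSO, 42 and 30 in Control GANC, 57 and 69 in HSVTK DMSO, and 5 and 15 in the libraries labelled HSVTK GANC, which gave -2.62 ± 0.48 with the drug in HSVTK cells and 2.76 ± 0.56 in Control cells. Of 6 tested genes of this list 4 fell in HSVTK cells, where 15.2% of all tested genes did. DESeq2 called 2 of them and limma 1. The other 2, Cd74 and H2-Eb1, had uncalled changes of 0.26 and 0.17. In Control cells edgeR called 1 of the 6 higher, H2-Ab1, and 0 lower, where 4.73% of all tested genes were higher and 3.35% lower. DESeq2 and limma called 0 in Control cells. Among the defining markers of such cells Itgax and Ptprc had 0 counts in every library. What part other cells have in the class I values was not tested.

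Reads may be shared between class I genes. Of all 100-base windows of the annotated transcripts, 0% of H2-K1, 4.09% of H2-D1, 7.28% of H2-T23 and 12.7% of Tapbp occur in another gene, and of 50-base windows 6.87, 13.9, 29.8 and 22.4%. Psmb9 and Tap1 overlap in the GENCODE vM21 annotation, as do Psmb8 and Tap2 with Gm20496 and Tapbp with Zbtb22 and Gm19412, and no source used here states whether counting was stranded. The values of H2-K1 (by its 50-base windows), H2-D1, H2-T23, Tap1, Tap2, Tapbp, Psmb8 and Psmb9 are uncertain to that extent. H2-K1 and H2-D1 vary between mouse strains, and whether reads of these cells match the reference alleles in full was not tested. Their levels and both ratios rest on that match.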

How the data were processed

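RNA was measured in 8 libraries of mouse embryonic stem cells, grouped as the labels give them. The authors deposited raw counts per gene, whole numbers with no normalization, and FPKM. All 456080 FPKM values equal counts divided by gene length and library total within 1e-05. Per the submitters' processing notes, the build was GRCm39, and the tools included featureCounts 2.0.1, HISAT2 2.1.0 and fastp 0.23.2. No source used here states strand use or what became of reads with several matches.

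Counts were tested with edgeR 4.0.16 (R 4.3.3) by its quasi-likelihood method, with TMM scaling, the default filterByExpr filter by group and 1 mean per group over all 8 libraries, which left 4 residual degrees of freedom. P-values were adjusted by Benjamini-Hochberg over 17976 genes, and a gene was called below 0.05. CPM use TMM factors. Standard errors are the log2 fold change over the root of F. DESeq2 1.42.0, limma 3.58.1 on log2(FPKM + 1), other scalings and filters, and leaving out each library were alternatives. Replicates differed beyond counting noise in every group. Same-numbered libraries of different groups did not deviate together (correlations of -0.0636 to 0.0243 over 13463 genes), so the numbers were not used as pairs. The members and gene lists were chosen with earlier results of these data known. From each other list, up to 3 called genes with the lowest adjusted p per comparison were named, besides B2m, Psmb10, Psme1, Psme2, Psmb5, Psmb6, Psmb7, Irf1, Rfx5 and the Zscan4 genes that check the labels. A further gene of the rule is not reported here.

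Promoters came from the RefSeq table on GRCm38.p6. Overlaps and shared windows came from the GENCODE vM21 transcripts, which are of another build than the counts, so names alone were matched.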

Additional observations from a re-analysis of the deposited data

Results flagged for a closer look

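The responses to ganciclovir in HSVTK and in Control cells differed, by the interaction test of edgeR, for 25.6% of all tested genes. Given here are the members called and the called companions that the naming rule picks, partly for this very difference, so that their number is no result. Values are the log2 fold change in HSVTK cells minus that in Control cells. The members were H2-K1 at -1.17, H2-D1 at -0.75 and Psmb9 at -2.76. Among other class I and class I-like genes the difference was -1.27 for H2-Bl, -1.86 for H2-Q10 and -2.09 for Hfe, which binds the transferrin receptor. The light chain B2m (0.50) and the chaperone and peptidase genes Pdia3 (0.42), Lnpep (0.48) and Lap3 (0.27) had positive differences. The difference for B2m was not called without Control DMSO replicate 1 (adjusted p = 0.0864, edgeR), HSVTK DMSO replicate 1 (0.133), Control GANC replicate 2 (0.05) or HSVTK GANC replicate 1 (0.0668).

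Of the promoter factors, Irf9 differed by 1.59, Nfyb by -0.49 and Irf8 by -3.46. Nfyc, another NF-Y subunit that the rule does not pick for this comparison, was called the other way, at 0.49. In the interferon gamma pathway Jak1 differed by -0.41, Ifngr1 by -0.91 and Socs3, a feedback inhibitor, by -0.34. Ifngr1 was not called without Control DMSO replicate 2 (adjusted p = 0.112, edgeR), HSVTK DMSO replicate 2 (0.143), Control GANC replicate 1 (0.055) or HSVTK GANC replicate 1 (0.107). Ligands of natural killer and macrophage receptors also differed: Ulbp1 at -0.94, Raet1d at 0.62 and Cd47 at -1.50.

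Among markers of other cells and states, H2-Ab1 differed by -5.38, H2-DMb1 by -1.39, Flt3 by -6.38, Pdgfrb by -1.89 and Fbn1 by 1.41. Flt3 rests on 0 to 15 counts in a library. The stem cell genes Tdgf1 (-0.94), Sox2 (-0.50) and Klf4 (-0.62) and the 2-cell genes Zscan4c (1.10) and Zscan4f (1.2) complete the set.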

How the results depend on the processing

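H2-K1 kept its call and direction in every alternative for ganciclovir in HSVTK cells, for HSVTK against Control cells under DMSO and for the difference of drug responses, as did H2-D1 under DMSO and Psmb9 in the difference. Over 40 member results, 591 recomputed values kept direction and side of the threshold, 39 lost the call, 1 gained it and 10 reversed. With the replicate block, which rests on numbers that do not pair the libraries, 2 members were called with the drug in HSVTK cells, 2 in Control cells, 3 in the difference, 3 under DMSO and 2 under ganciclovir. By limma on log2 FPKM (pseudocount 1, pseudocount 0.1, or a mean FPKM of at least 0.5), the calls were 1, 1 and 1 in HSVTK cells against 2, 0, 0 and 0 in Control cells against 3, 2, 2 and 2 for the difference against 3, 2, 2 and 2 under DMSO against 4, and 1, 0 and 1 under ganciclovir against 2. In Control cells DESeq2 called 2, and so did a fit of the 4 Control libraries alone. Leaving out 1 library gave 1 to 2 members in HSVTK cells, 0 to 3 in Control cells, 3 to 4 for the difference, 3 to 4 under DMSO and 1 to 2 under ganciclovir.

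Over all genes, limma with the pseudocounts 1 and 0.1 called 2615 and 2678 genes with the drug in HSVTK cells against 5119, 29 and 47 in Control cells against 1453 (417 with the FPKM minimum, 942 with the Control libraries alone in edgeR), 1981 and 2127 for the difference against 4595, 3652 and 3692 under DMSO against 6060, and 2288 and 2381 under ganciclovir against 4685. Leaving out 1 library gave 3313 to 5627, 433 to 2010, 3415 to 4638, 4399 to 6560 and 2999 to 4497 genes in that order. The block gave 4932, 1339, 4433, 5882 and 4517.

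The 10 reversals were of uncalled members without 1 library. The ranges that follow cover all alternative runs, not the runs without 1 library alone. For the drug in HSVTK cells, H2-T23 ranged from -0.14 to 0.47 (negative without HSVTK DMSO replicate 2, and at -0.08 without HSVTK GANC replicate 2). Tap1 ranged from -0.03 to 0.55 (negative without HSVTK GANC replicate 1, and without HSVTK DMSO replicate 1 at -0.02). Tap2 ranged from -1.48 to 0.18 (positive without HSVTK DMSO replicate 1) and Nlrc5 from -0.18 to 1.39 (negative without HSVTK GANC replicate 1). In Control cells Tapbp ranged from -0.01 to 0.30 and Nlrc5 from -1.26 to 0.26 (both turned without Control DMSO replicate 1). Under DMSO Nlrc5 ranged from -0.59 to 0.76 (positive without Control DMSO replicate 1, and at 0.03 without HSVTK DMSO replicate 1). The cause was not tested. Depth limits Psmb8, Tap2, Nlrc5 and H2-T23, with 0 to 36 counts in a library.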

Other observations

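Surface ligands read by natural killer cells and macrophages were measured beside class I, with 6 of 12 listed genes tested. Ulbp1, a ligand of the activating receptor NKG2D, stood at 8.16 and 7.76 CPM in Control DMSO, 8.71 and 8.22 in Control GANC, 21.6 and 18.7 in HSVTK DMSO, and 11.0 and 11.3 in the libraries labelled HSVTK GANC. Cd47, which restrains macrophages, stood at 4.06 and 3.49, 5.09 and 5.87, 6.32 and 7.16, and 3.30 and 3.59 CPM in the same order. Both were highest in HSVTK DMSO, and with ganciclovir in HSVTK cells Ulbp1 changed by -0.85 ± 0.12 (adjusted p = 4.33e-06, edgeR) and Cd47 by -0.97 ± 0.18 (adjusted p = 0.000167, edgeR). Cd274, the ligand PD-L1, had 3 to 22 counts in a library. It was lower in HSVTK than in Control cells under DMSO, at -2.04 ± 0.74 on the log2 scale (adjusted p = 0.0325, edgeR). DESeq2 and limma called 0 genes of this list lower in that comparison.

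Of 13458 tested genes with a mean of at least 1 CPM, those whose log2 CPM followed the mean z-score of the 8 tested members most closely over the 8 libraries were Ahi1 (Pearson r = 0.977), Faim (0.977), Tnfrsf1b (0.976), Slc25a39 (0.972) and Vps8 (0.972), and 144 genes had r above 0.9. The libraries share 4 groups, so this describes a ranking and carries no p.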
